A study of Mus musculus with 16 samples.

Results

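Semaphorins, their plexin receptors and the neuropilin co-receptors were read across the stromal and immune cells of mouse inguinal lymph nodes (LNs). The members were every gene row whose symbol was a numbered Sema, a Plxna, Plxnb, Plxnc or Plxnd gene, or Nrp1 or Nrp2, which gave 34 of the 48440 rows: 20 semaphorins (7 of class 3), 9 plexins, 3 antisense genes of Plxna4 and 2 neuropilins. The study asked how a growing tumor changes the stroma of the LN that drains it before tumor cells arrive. C57BL/6 mice, 8 weeks old and sex-matched, received 500000 MC38 cells, a mouse colon adenocarcinoma line, under the skin of the lower right flank, and LNs were taken on day 12. The groups were tumor-draining LNs of mice given live MC38 cells (live draining, 3 libraries), the contralateral LNs of such mice (live non-draining, 3 libraries), draining LNs of mice given paraformaldehyde-fixed MC38 cells (fixed draining, 3 libraries), the contralateral LNs of those (fixed non-draining, 3 libraries) and LNs of naive mice that received no cells (4 libraries). All cells had been enriched for podoplanin (PDPN), and each library was a droplet 3′ library of single cells. Draining and contralateral LNs were taken from the same mice, but the labels do not tie a library letter to a mouse. They also do not say whether a library held the LNs of a single mouse or of several, so p-values measure the spread between libraries, which may be technical in part. Where the values of a group are listed, they follow the libraries A to C, or A to D for naive mice.

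Semaphorins are secreted or membrane-bound ligands first known for steering axons, and plexins are the receptors that bind them and act on small Ras-family GTPases and the cytoskeleton. Most secreted class 3 semaphorins reach plexins of the A group through a neuropilin: SEMA3A binds NRP1 and SEMA3F binds NRP2. The neuropilins also bind vascular endothelial growth factors, NRP2 in particular VEGF-C in lymphatic endothelium, where SEMA3F opposes it. In mice, SEMA3A and plexin A1 are known for the passage of dendritic cells into lymphatic vessels.

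The promoters of Sema5a, which fell at the sinus floor and in marginal reticular cells, and of Nrp2, which fell in reticular cells, are shown because these genes carry calls of the live draining comparison. Sema5a stands at chr15:32244810-32696341 and Nrp2 at chr1:62703285-62818695, both on the plus strand of GRCm38. Each sequence is the RefSeq GRCm38.p6 window of 300 bases, 250 before and 50 after the annotated start, at chr15:32244563-32244862 for Sema5a and chr1:62703067-62703366 for Nrp2, and capitals mark the GC box GGGCGG or its reverse complement.
Sema5a: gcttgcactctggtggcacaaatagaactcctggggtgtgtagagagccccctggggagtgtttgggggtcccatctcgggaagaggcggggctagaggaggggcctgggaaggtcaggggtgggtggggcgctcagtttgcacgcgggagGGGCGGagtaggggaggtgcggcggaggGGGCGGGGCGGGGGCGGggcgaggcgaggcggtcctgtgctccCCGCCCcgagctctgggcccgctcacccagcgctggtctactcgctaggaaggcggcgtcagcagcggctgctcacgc
Nrp2: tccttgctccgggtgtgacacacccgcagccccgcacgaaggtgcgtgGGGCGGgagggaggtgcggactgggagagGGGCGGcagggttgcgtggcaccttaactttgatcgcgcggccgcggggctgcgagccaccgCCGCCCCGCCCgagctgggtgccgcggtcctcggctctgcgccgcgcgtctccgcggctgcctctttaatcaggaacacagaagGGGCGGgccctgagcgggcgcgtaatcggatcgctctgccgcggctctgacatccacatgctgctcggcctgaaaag
Each window held 5 matches of the GC box on the 2 strands, some of them overlapping, and none, on either strand, of a TATA box (TATAAA), an AP-1 site (TGANTCA), a STAT site (TTCNNNGAA) or a hypoxia element (ACGTG). A GC box stood in 35.7% of all 32851 mouse promoter windows, a TATA box in 13.6%, an AP-1 site in 7.81%, a STAT site in 8.3% and a hypoxia element in 19.6%. The 26 members with a window had 37 windows, of which 27 held a GC box, 0 a TATA box, 3 an AP-1 site, 1 a STAT site and 8 a hypoxia element. A match is a run of letters and not a bound site, and no binding was measured here.

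Libraries held 7486725 to 48945961 unique molecular identifiers (UMIs, counts of distinct captured transcripts), and 50386 of 68741 barcodes passed filters on genes detected and mitochondrial share, with 1065 to 5132 cells kept and a median of 3421 to 5098 UMIs per cell in a library. Of 50053 distinct barcodes, 330 occurred in more than 1 library. Cells were assigned to types by marker genes, none of which is a member: 8876 lymphatic endothelial cells (LECs), 551 blood endothelial cells (BECs), 5369 reticular cells and 16411 immune cells. Endothelial cells assigned to neither the lymphatic nor the blood type, 17 to 90 in a library, were left out. A further 18686 cells were left out for too few markers of every lineage, too many of a second lineage or too many mural markers. These were 41.1% to 43.1% of a library in live draining, 32.4% to 34.3% in live non-draining, 32.8% to 35.3% in fixed draining, 27.2% to 27.6% in fixed non-draining and 37.7% to 41.3% in naive LNs. Reticular-type cells left out for carrying 3 or more mural markers numbered 704, 673 and 501 in live draining LNs, against 269, 154 and 182 in live non-draining LNs. The part of these exclusions in the results was not tested. Within LECs, 2614 cells matched the sinus floor (fLEC), 3559 the sinus ceiling (cLEC), 965 the medulla (MedLEC) and 391 the cortex (CorLEC). Within reticular cells, 1126 matched the T zone (TRC), 1108 the margin (MRC), 967 the medulla (MedRC) and 293 the adventitia. These types were rebuilt from markers and need not match the clusters of the study. A level is a gene's UMIs per 1000000 UMIs of a type in a library, summed over its cells and written CPM; levels are compared between cell types for the same gene, never between genes.

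The family divided by cell type. A median level of at least 10 CPM was reached by 18 of 34 members in reticular cells, 17 in BECs, 14 in LECs and 13 in immune cells. Together, 6 members held fewer than 500 UMIs over all barcodes: Plxna4os3 had 5, Plxna4os2 24, Sema3e 26, Plxnb3 156, Sema5b 393 and Sema4g 483. These 6 and Sema6c, a membrane ligand, passed the low-count filter in no test between cell types, so that no difference of Sema3e, whose protein binds plexin D1 without a neuropilin, was detectable at this depth. The antisense genes overlap Plxna4 on the other strand, and whether reads were counted by strand is not given in the sources used here, so their values are uncertain.

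**Figure D1:**
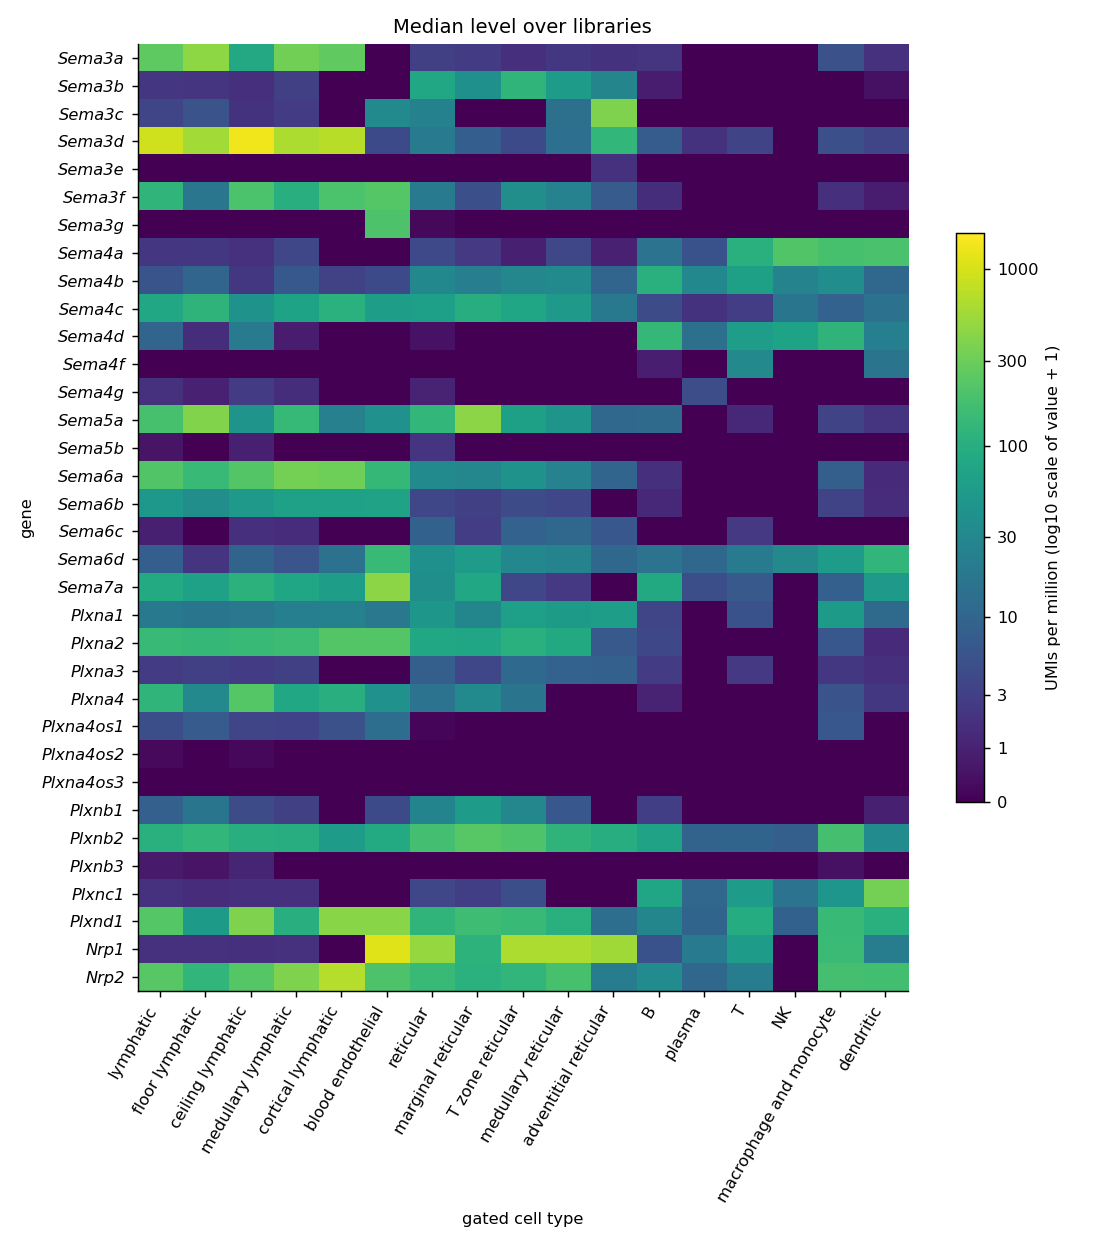
Median level of each of the 34 genes (rows) in each gated cell type (columns) over the libraries with at least 10 such cells, as log10 of CPM (UMIs per 1000000) plus 1. Nrp1 is high in BECs and in most reticular subsets and near 0 in LECs, Sema3g stands out in BECs, Sema3c in adventitial cells, and Sema5a in fLECs and MRCs.

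The neuropilins differed in where they were found. Nrp1, co-receptor of SEMA3A and VEGF-A, ranged over the 16 libraries between 582 and 1413 CPM in BECs (median 1090) and between 393 and 653 in reticular cells (median 496). In LECs it ranged between 0.379 and 3.15 (median 1.83, 162 UMIs in all), which is at or below its level in B cells (0 to 14.1, median 5.33) and is read as background. Within reticular cells Nrp1 was lowest in MRCs (72.8 to 228, median 114) and higher in TRCs (495 to 909, median 635). LECs, BECs and reticular cells all carried Nrp2: its median was 705 CPM in CorLECs (601 to 906), 385 in MedLECs (339 to 464), 126 in fLECs (115 to 161), 199 in BECs (132 to 396) and 141 in reticular cells (83.6 to 183). The ranges of CorLECs, MedLECs and fLECs did not overlap, whereas those of BECs and reticular cells did. The range of cLECs is not given here. In adventitial cells the mean of Nrp2 was only 21.6 in live draining, 21.9 in fixed draining and 21.0 in naive LNs, with 61.5 in 1 live non-draining library. B cells ranged between 4.13 and 107.3. Nrp2 was not confined to stroma, as group means in dendritic cells lay between 138.7 and 180.6.

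Type against type was tested with the library as a block, since types of a library share its source. Of 27 members tested, 12 were higher and 12 lower in LECs than in reticular cells, in a comparison where 74.5% of all genes were called, 31.3% higher and 43.2% lower. Sema3a (log2 fold change 6.07, SE 0.13) and Sema3d (5.02, SE 0.15), secreted class 3 ligands that lie near each other on chromosome 5, led the LEC side, followed by the antisense gene Plxna4os1 (3.69, SE 0.28), Sema6b (3.43, SE 0.12), Plxna4 (2.96, SE 0.092), Sema4d (2.95, SE 0.25), Sema3f (2.66, SE 0.12) and Sema6a (2.59, SE 0.083). Nrp1 (-8.21, SE 0.12), Sema3b (-5.34, SE 0.11) and Sema3c (-3.35, SE 0.23) led the reticular side, all with adjusted p at or below 3.6e-20. Sema5a, a membrane semaphorin with thrombospondin repeats, did not separate LECs from reticular cells (0.02, adjusted p = 0.85).

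Against BECs, LECs were higher in 7 and lower in 10 members (48.4% of all genes were called, 30.5% higher and 17.9% lower). Sema3d (6.74, SE 0.26) and Sema3a (6.63, SE 0.24) were again on the LEC side, and Sema3g, a ligand known from arterial endothelium (-11.37, SE 0.21), Nrp1 (-9.09, SE 0.12) and Sema6d (-4.20, SE 0.17) were on the BEC side. BECs were higher than reticular cells in 12 and lower in 10 members (60.6% of all genes were called, 20.3% higher and 40.3% lower). Among the higher were Sema3g (8.45, SE 0.20) and Sema7a, a GPI-anchored ligand of plexin C1 and integrins (3.36, SE 0.099), and among the lower Sema3b (-5.53, SE 0.28). The mean of the stromal types stood above immune cells for 19 members and below for 6 (83.8% of all genes were called, 37.4% higher and 46.4% lower). Plxnc1 (-6.24, SE 0.095), Sema4f (-6.15, SE 0.22), Sema4a (-5.69, SE 0.085) and Sema4d (-5.01, SE 0.13), the last known as CD100 of lymphocytes, led the immune side.

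Within the lymphatic lining, floor and ceiling carried different ligands. Sema5a was higher in fLECs than in the mean of the other LEC subsets (log2 fold change 2.72, SE 0.092, adjusted p = 1.9e-36), as was Sema3a (1.23, SE 0.065), while Sema3f (-2.67, SE 0.11), Plxnd1 (-2.08, SE 0.072), Plxna4 (-1.87, SE 0.094) and Nrp2 (-1.54, SE 0.048) were lower. In all, 4 members were higher and 11 lower in fLECs (61.5% of all genes were called, 30.9% higher and 30.6% lower). cLECs had 7 members higher and 6 lower (58.5% of all genes were called, 29.4% higher and 29.1% lower), among them Sema4d (3.24, SE 0.18), Plxna4 (1.80, SE 0.071), Sema3f (1.45, SE 0.086), Plxnd1 (1.45, SE 0.057) and Sema3d (1.09, SE 0.04) on the high side and Sema3a (-1.89, SE 0.077) on the low side. MedLECs had 5 members higher and 3 lower (41.7% of all genes were called, 22.6% higher and 19.1% lower), and CorLECs 7 and 2 (37.5% of all genes were called, 18.3% higher and 19.2% lower), led by Plxnd1 (1.67, SE 0.076) and Nrp2 (1.65, SE 0.049). fLECs held 69.2% of the Sema5a UMIs of all LECs (9696 of 14003), and cLECs 66.8% of those of Sema3f (8201 of 12275).

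Within reticular cells, MRCs were higher than the other subsets in 10 members and lower in 6 (55.6% of all genes were called, 28.9% higher and 26.7% lower): Sema7a (5.01, SE 0.20), Plxnb1 (3.64, SE 0.27) and Sema5a (3.60, SE 0.11) were high and Nrp1 (-2.38, SE 0.10) was low. Adventitial cells were higher in 4 and lower in 14 members (58.5% of all genes were called, 27.9% higher and 30.5% lower), with Sema3c (6.84, SE 0.21) and Sema3d (3.82, SE 0.19) far above and Nrp1 (0.82, SE 0.10) and Plxna1 (0.61, SE 0.14) above the other subsets. TRCs had 13 members higher and 2 lower (33.0% of all genes were called, 18.9% higher and 14.1% lower), and MedRCs 7 and 3 (28.3% of all genes were called, 17.4% higher and 10.9% lower), with Nrp2 (1.29, SE 0.10) on the high side of MedRCs. Sema5a was thus high at the sinus floor and in the reticular cells of the margin, and Sema3c in the adventitia.

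Live draining LNs were then set against live non-draining LNs in LECs. Of 26 members tested, 6 rose and 3 fell, in a fit of 13872 genes in which 30.3% of all genes were called, 15.8% higher and 14.6% lower; 11 members had an unadjusted p under 0.05. The median log2 fold change was 0.112 over the members and -0.0118 over all genes. The largest rise with the firmest call was that of Sema3f, the NRP2 ligand: it had 251, 223 and 240.3 CPM in live draining LECs, against 99.7, 121 and 114 in live non-draining LECs (log2 fold change 1.17, SE 0.079, adjusted p = 5.9e-11). It had 139, 142 and 126 in fixed draining, against 111, 94.2 and 106 in fixed non-draining LECs, and 127, 106, 115 and 127 in naive LECs. The live draining libraries stood above all others, and the fixed draining libraries overlapped the naive ones. Sema3f was also the single member called between fixed draining and fixed non-draining LECs (0.37, SE 0.081, adjusted p = 0.014), where 1.90% of all genes were called, 1.19% higher and 0.714% lower. That smaller call was lost without fixed draining A, fixed draining B or fixed non-draining B (0.31 to 0.45 over the leave-outs) and under a stricter gate.

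Sema5a moved the other way. It had 84.8, 97.7 and 93.4 CPM in live draining LECs, against 172, 198 and 213 in live non-draining LECs (log2 fold change -1.01, SE 0.073, adjusted p = 1.8e-10). It had 206, 198 and 205 in fixed draining, against 201, 223 and 198 in fixed non-draining and 169, 169.5, 158 and 167 in naive LECs. The 3 live draining libraries were the lowest of the 16, and no draining effect was called after fixed cells (-0.04, adjusted p = 0.90). Sema3d, a secreted ligand of the ceiling, fell by 0.34 on the log2 scale (SE 0.062, adjusted p = 0.00019), with 721, 690.1 and 710.1 CPM in live draining LECs, against 846, 937 and 1009 in live non-draining LECs. All live draining libraries were again below all others, which ranged up to 1024 in fixed draining LECs.

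Sema3a, the NRP1 ligand, had 379.7, 369 and 335 CPM in live draining LECs, against 252, 308 and 303 in live non-draining LECs (log2 fold change 0.39, SE 0.071, adjusted p = 0.00015). Plxnb2, a receptor of class 4 semaphorins, had 138, 141 and 132 in live draining LECs, against 95.6, 108 and 100.0 in live non-draining LECs (0.50, SE 0.066, adjusted p = 2.2e-06). Sema4c, a membrane ligand of plexin B2, had 93.6, 93.1 and 92.2 in live draining LECs, against 69.1, 76.8 and 62.1 in live non-draining LECs (0.48, SE 0.080, adjusted p = 5.6e-05). For each of these 3 genes the groups did not overlap, and a ligand and its receptor, Sema4c and Plxnb2, both rose in the summed LECs. Whether they rose in the same cells was not examined. Of the LEC subsets below, only fLECs had both called. The remaining calls were Plxnd1 (0.21, adjusted p = 0.03), Sema6b (0.23, adjusted p = 0.049) and Plxna3 (-1.26, adjusted p = 0.019), each with overlapping groups or, for Plxna3, few UMIs (29 in live draining LECs, against 39 in live non-draining LECs). All 3 calls were lost in some leave-outs: Plxnd1 without live draining A or C or live non-draining A (0.12 to 0.28 over the leave-outs), Sema6b without any live draining library, any fixed draining library, or live non-draining A or C (0.18 to 0.31), and Plxna3 without live draining B or C or live non-draining B or C (-1.69 to -1.06). With the library letter as a block Sema6b also lost its call (0.24, adjusted p = 0.071).

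The neuropilins of LECs gave no call. Nrp2 had 249, 207 and 210.3 CPM in live draining LECs, against 242, 245 and 274 in live non-draining LECs (-0.13, SE 0.081, adjusted p = 0.23), with 226, 219 and 229 in fixed draining, against 203, 192 and 233 in fixed non-draining and 283, 260.5, 268 and 223 in naive LECs. The groups overlapped. Nrp1 had 3.15, 2.02 and 2.14 in live draining LECs, against 1.75, 1.27 and 0.379 in live non-draining LECs, 2.98, 2.40 and 1.30 in fixed draining, against 0.674, 1.33 and 1.28 in fixed non-draining and 2.21, 2.04, 0.965 and 1.91 in naive LECs, all within the background level given above.

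The live draining effect was next set against the fixed draining effect by an interaction term (the live difference minus the fixed difference). In LECs 5 members had a more positive and 2 a more negative live effect (18.8% of all genes were called, 9.88% higher and 8.91% lower). These were Sema5a (-0.97, SE 0.099, adjusted p = 1.6e-07), Sema3f (0.79, SE 0.11, adjusted p = 2e-05), Plxnb2 (0.51, SE 0.093, adjusted p = 0.00032), Sema3d (-0.45, SE 0.088, adjusted p = 0.0007), Sema3a (0.48, SE 0.10, adjusted p = 0.0016), Sema4c (0.37, SE 0.11, adjusted p = 0.023) and Plxna4os1 (1.05, SE 0.34, adjusted p = 0.033). Sema4c lost this call without live non-draining C or fixed non-draining B (0.28 to 0.48 over the leave-outs), and Plxna4os1 in 8 leave-outs (0.95 to 1.24). Against naive LECs, live draining LECs were higher in 5 and lower in 3 members (30.8% of all genes were called, 16.1% higher and 14.8% lower), with Sema3f (1.05), Sema3a (0.60) and Sema5a (-0.80) in the same directions; this comparison shares the live draining libraries with the one above.

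Markers of other cells moved in LECs as well. The reticular list of 7 genes summed to 179.8 to 202.3 CPM in live draining LECs, against 72.99 to 81.36 in live non-draining LECs, and the mural list of 6 genes to 232.1 to 263.2, against 79.74 to 124.3, with no marker of either list at 0. The share of fLECs among LECs was 28.9% to 31.5% in live draining LNs, against 31.4% to 33.9% in live non-draining LNs, and that of MedLECs 8.44% to 10.8%, against 12.9% to 13.8%. The part of these shifts in the changes of LECs as a whole was not tested, and the subsets were therefore tested each on its own.

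**Figure D2:**
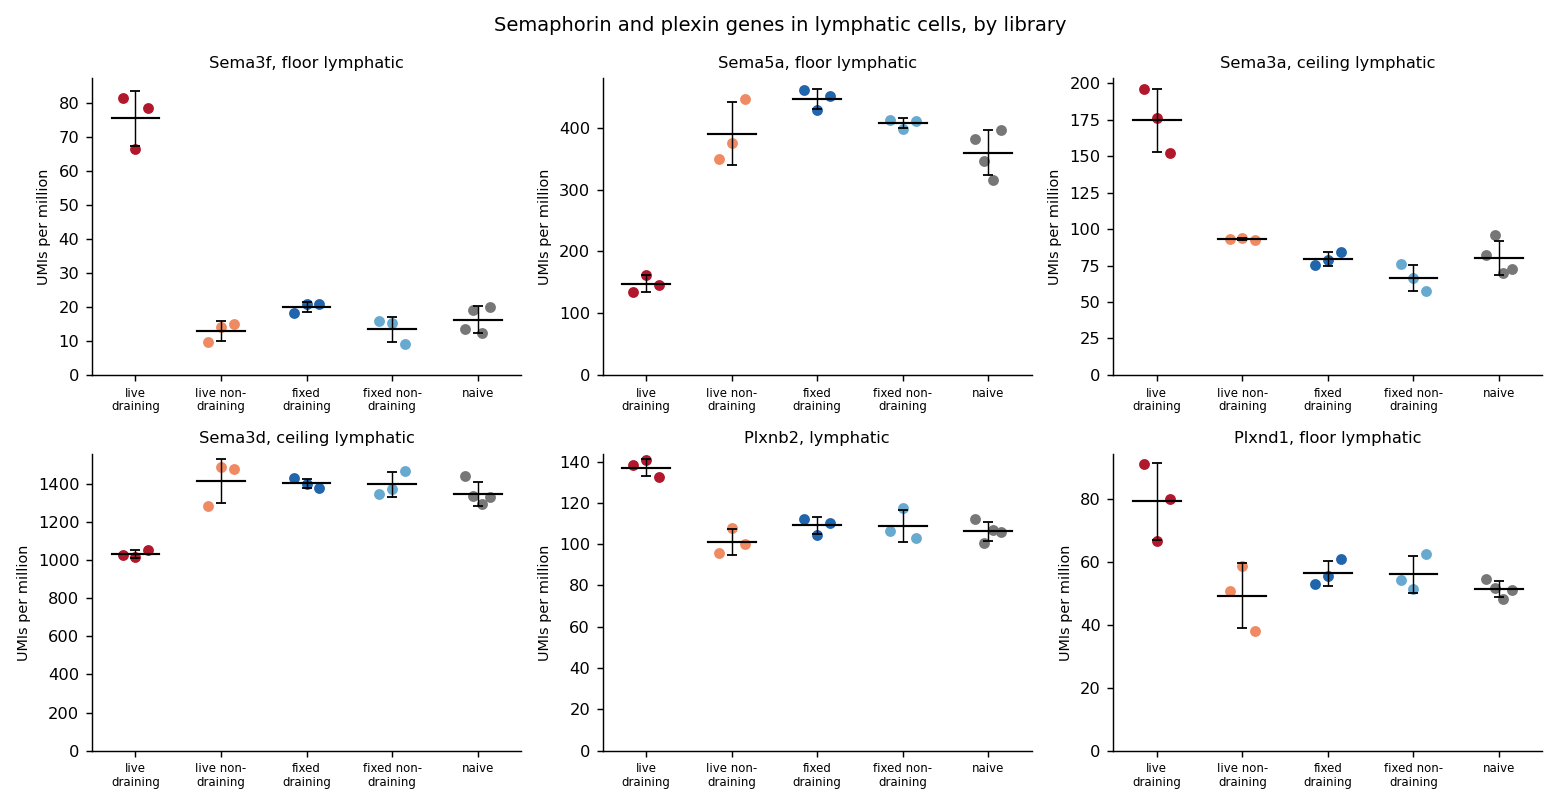
CPM of Sema3f and Sema5a in fLECs, Sema3a and Sema3d in cLECs, Plxnb2 in LECs and Plxnd1 in fLECs, by group, with live draining at the left and naive at the right. Points are libraries and bars the mean ± SD; in fLECs the live draining libraries lie between 66.3 and 81.4 for Sema3f, above every other library, and between 135 and 162 for Sema5a, below every other library.

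At the sinus floor Sema3f rose and Sema5a fell. In fLECs 4 of 18 members tested rose and 2 fell in live draining LNs (24.7% of all genes were called, 13.7% higher and 11.1% lower), and 0 were called by edgeR after fixed cells (0 by DESeq2, 1 at an unadjusted p under 0.05), where 0.121% of all genes were called, 0.0954% higher and 0.0260% lower. Sema3f, scarce in fLECs otherwise, had 81.4, 66.3 and 78.4 CPM in live draining fLECs, against 9.59, 14.2 and 14.8 in live non-draining fLECs (179, 176 and 150 UMIs against 19, 13 and 14; log2 fold change 2.70, SE 0.19, adjusted p = 1.1e-12). It had 18.2, 21.0 and 20.8 in fixed draining, against 15.8, 15.3 and 8.96 in fixed non-draining and 13.4, 19.1, 12.3 and 20.0 in naive fLECs. No other library reached a level of 22, and the live effect exceeded the fixed effect by 2.22 (SE 0.33, adjusted p = 1.1e-05). The ceiling marker list was 33.5 to 42.9 in live draining fLECs, against 26.5 to 36.0 in live non-draining fLECs, and its part was not tested.

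Sema5a, which sets the floor apart from the other LEC subsets, had 135, 162 and 146 CPM in live draining fLECs, against 349, 376 and 447 in live non-draining fLECs (-1.31, SE 0.097, adjusted p = 2.3e-12). It had 460.5, 428 and 452 in fixed draining, against 413, 398 and 411 in fixed non-draining and 382, 346, 315 and 396 in naive fLECs. The highest live draining library was below the lowest of the 13 others, and the interaction was -1.44 (SE 0.13, adjusted p = 1.5e-09). Outside the floor Sema5a was not called: it had 37.9, 28.7 and 44.3 in live draining cLECs, against 27.0, 47.4 and 42.0 in live non-draining cLECs (0.04, adjusted p = 0.92), and 116, 132 and 101 in live draining MedLECs, against 132, 117 and 196 in live non-draining MedLECs (-0.27, adjusted p = 0.60). Whether the effect differs between these subsets was not tested.

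Sema4c rose in fLECs too, with 149, 148 and 149 CPM in live draining fLECs, against 97.9, 112 and 87.0 in live non-draining fLECs (0.66, SE 0.10, adjusted p = 6.3e-06). Plxnd1, a receptor of vessels that binds SEMA3E, rose by 0.73 (SE 0.14, adjusted p = 9.3e-05) and Plxnb2 by 0.52 (SE 0.096, adjusted p = 0.00011), while Sema3d fell by 0.46 on the log2 scale (SE 0.088, adjusted p = 0.00014). All 6 fLEC changes differed from those after fixed cells (12.3% of all genes were called, 6.56% higher and 5.72% lower), at 0.55 for Sema4c, 0.72 for Plxnd1, 0.44 for Plxnb2 and -0.50 for Sema3d. The interaction of Sema4c was lost without fixed non-draining B (0.45), that of Plxnb2 in 6 leave-outs (0.37 to 0.50) and with the library letter as a block (0.43, adjusted p = 0.063), and those of Sema3d and Plxnd1 under a stricter gate. Against naive fLECs 6 members were higher and 2 lower (27.7% of all genes were called, 15.2% higher and 12.5% lower), Sema6b (0.42, adjusted p = 0.017) and Sema7a (0.37, adjusted p = 0.0072) being added. The mural list summed to 556.4 to 637.8 in live draining fLECs, against 183.2 to 322.5 in live non-draining fLECs, and the reticular list to 99.35 to 179.7, against 33.8 to 44.56; their part in these results was not tested.

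**Figure D3:**
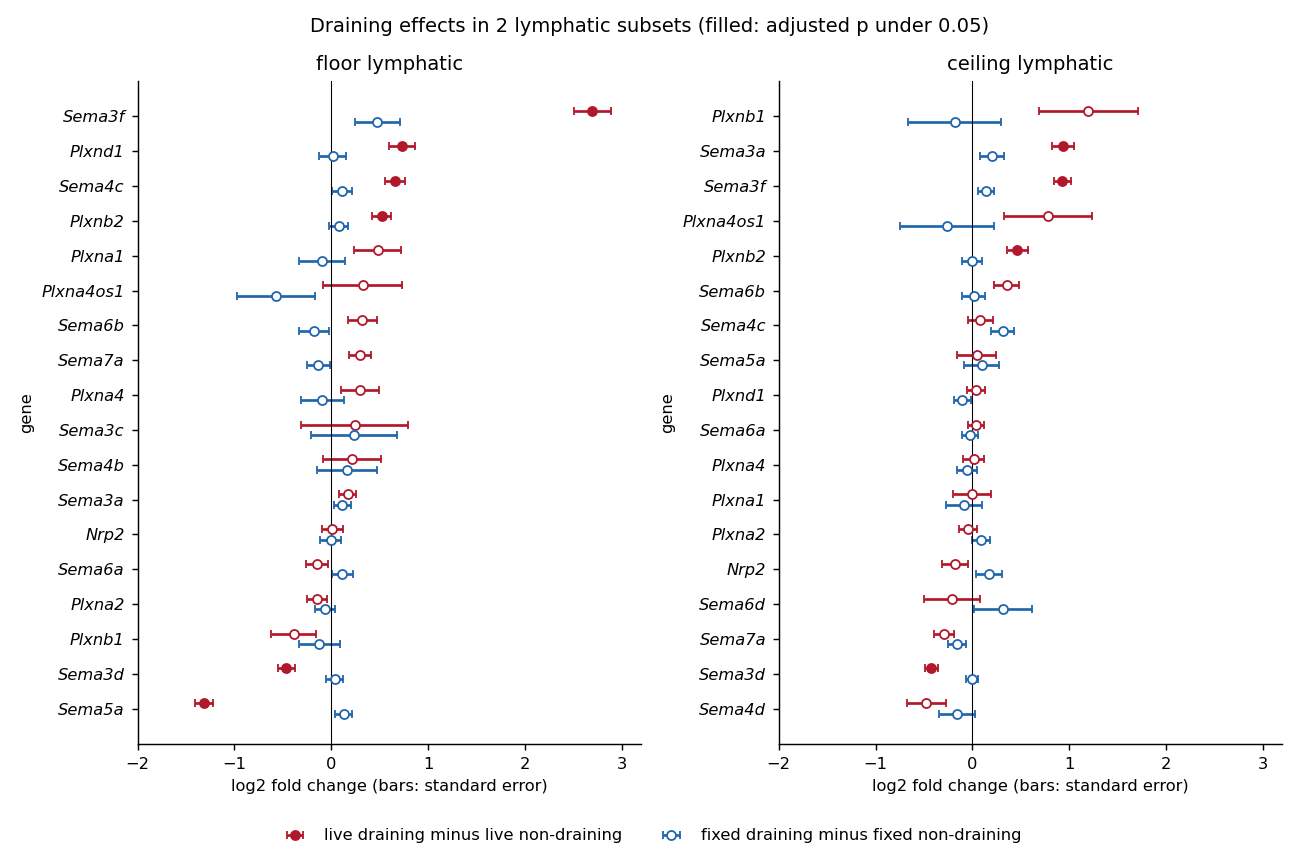
Log2 fold change ± SE of each of 18 genes for live draining against live non-draining and for fixed draining against fixed non-draining LNs, in fLECs and in cLECs. Filled points have an adjusted p under 0.05; in fLECs Sema3f (2.70) and Sema5a (-1.31) lie farthest from 0 on the live side, and no fixed effect is filled.

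In cLECs 3 of 18 members rose and 1 fell (17.8% of all genes were called, 9.38% higher and 8.37% lower), and 0 were called by edgeR after fixed cells (0 by DESeq2, 1 at an unadjusted p under 0.05), where 0.332% of all genes were called, 0.264% higher and 0.0681% lower. Sema3f had 384, 348 and 377 CPM in live draining cLECs, against 188, 223 and 189 in live non-draining cLECs (0.93, SE 0.086, adjusted p = 4.4e-09), so it rose also where it was already high. Sema3a had 196, 176 and 152 in live draining cLECs, against 93.3, 93.7 and 92.8 in live non-draining cLECs (0.94, SE 0.11, adjusted p = 7.2e-07), and 57.9 to 95.7 in the 10 libraries of the fixed and naive groups. Sema3d had 1029, 1017 and 1054 in live draining cLECs, against 1286, 1489 and 1478 in live non-draining cLECs (-0.42, SE 0.065, adjusted p = 2.2e-05). In none of these 3 genes did the live draining libraries overlap any other library. Plxnb2 rose by 0.46 (SE 0.11, adjusted p = 0.003).

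All 4 cLEC changes also differed from the fixed effect (10.7% of all genes were called, 5.65% higher and 5.08% lower): 0.79 for Sema3f, 0.73 for Sema3a, -0.42 for Sema3d and 0.47 for Plxnb2. The interaction of Sema3a was lost without fixed non-draining A (0.60 to 0.82 over the leave-outs) and that of Plxnb2 in 7 leave-outs (0.34 to 0.54) and with the library letter as a block (0.46, adjusted p = 0.08). Against naive cLECs, 5 members were higher and 1 lower (16.6% of all genes were called, 8.94% higher and 7.66% lower), including Sema3a (1.15, adjusted p = 4.8e-10) and Sema6b (0.49, adjusted p = 0.0013). The floor marker list, which holds no member, summed to 475.4 to 716.6 in live draining cLECs, against 55.52 to 139.2 in live non-draining cLECs, and the ceiling list to 2274.6 to 2663.5, against 3456.2 to 3719.7. The part of that shift in the rise of Sema3a, which is high in fLECs, was not tested.

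In MedLECs Sema3f and Sema3a rose. In this subset 4 of 14 members rose and 0 fell (5.42% of all genes were called, 3.49% higher and 1.93% lower), with Sema3f at 243, 224 and 215 CPM in live draining MedLECs, against 76.6, 89.0 and 90.6 in live non-draining MedLECs (1.48, SE 0.20, adjusted p = 1.1e-05). Sema3a had 545, 693 and 556 in live draining MedLECs, against 299.7, 279 and 336 in live non-draining MedLECs (1.01, SE 0.15, adjusted p = 1.8e-05). The groups did not overlap for either gene. The live effect exceeded the fixed effect for Sema3a (1.29, SE 0.21, adjusted p = 0.0006; 1.47% of all genes were called, 0.799% higher and 0.672% lower), whereas for Sema3f the difference missed the threshold (0.75, adjusted p = 0.33). Sema4c had 109.8, 121 and 76.4 in live draining MedLECs, against 64.9, 56.6 and 41.5 in live non-draining MedLECs (0.93, SE 0.24, adjusted p = 0.018), a call lost without live draining A or B or live non-draining C (0.78 to 1.19 over the leave-outs). Plxnd1 rose by 0.64 (adjusted p = 0.04), lost without live draining A or C or live non-draining A or C (0.47 to 0.82). The floor list was 682.3 to 1547.5 in live draining MedLECs, against 347.2 to 494.4 in live non-draining MedLECs, and its part was not tested. After fixed cells edgeR called 0 members (0 by DESeq2, 2 at an unadjusted p under 0.05), where 0.0348% of all genes were called, 0.0232% higher and 0.0116% lower.

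CorLECs, the fewest of the LECs, gave 0 calls by edgeR among 12 members between live draining and live non-draining LNs (4 at an unadjusted p under 0.05), where 0.226% of all genes were called, 0.169% higher and 0.0564% lower. Nrp2, highest in this subset, had 851, 712 and 601 CPM in live draining CorLECs, against 724, 723 and 899.7 in live non-draining CorLECs (-0.11, adjusted p = 0.88). Against naive CorLECs, Sema3a was called (1.02, SE 0.22, adjusted p = 0.02; 0.414% of all genes were called, 0.301% higher and 0.113% lower), with 535, 341 and 341 in live draining CorLECs, against 200.2, 177, 261 and 156 in naive CorLECs.

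In BECs, which were few in live draining LNs (19, 15 and 14 cells), 0 of 15 members rose and 1 fell (1.61% of all genes were called, 0.946% higher and 0.662% lower; 2 members had an unadjusted p under 0.05). The paper defines BECs in flow cytometry as PDPN-negative, so those present after PDPN enrichment need not represent the BECs of the LN. Sema3g had 59.5, 84.7 and 75.5 CPM in live draining BECs, against 283, 311 and 199 in live non-draining BECs (14, 7 and 8 UMIs against 144, 61 and 42; -1.87, SE 0.42, adjusted p = 0.025). It had 249, 284 and 197 in fixed draining, against 124, 519.7 and 119 in fixed non-draining and 234, 269.8, 202 and 183 in naive BECs, and the comparison with naive was called as well (-1.62, SE 0.40, adjusted p = 0.045; 1.38% of all genes were called, 0.775% higher and 0.605% lower). Every live draining library was below all 13 others. The call against live non-draining BECs was lost without live draining A or C or live non-draining A or B (-2.01 to -1.72 over the leave-outs). Sox17, an arterial transcription factor used in the BEC gate, was 108.9 to 160.5 in live draining BECs, against 279.3 to 316.1 in live non-draining BECs; the part of arterial cells in the result was not tested. The transcript was nearly private to BECs among stromal cells, with 968 UMIs there, 3 in LECs and 14 in reticular cells.

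Nrp1 had 582, 1101 and 906 CPM in live draining BECs, against 1124, 902 and 1307 in live non-draining BECs (-0.37, SE 0.23, adjusted p = 0.40), with 1120.0, 1047 and 1413 in fixed draining, against 1212, 784 and 1078 in fixed non-draining and 1123, 971, 1301 and 809 in naive BECs. Nrp2 had 149, 181 and 179 in live draining BECs, against 192, 209 and 227 in live non-draining BECs (-0.28, adjusted p = 0.67), and Sema5a 21.3, 72.6 and 56.7, against 53.0, 51.0 and 33.1 (-0.14, adjusted p = 0.92). None of these passed the test, and the groups of Nrp1 and Sema5a overlapped. After fixed cells edgeR called 0 members (0 by DESeq2, 1 at an unadjusted p under 0.05) and 0% of all genes. For the interaction it also called 0 members (0 by DESeq2, 3 at an unadjusted p under 0.05), where 0.0757% of all genes were called, 0.0189% higher and 0.0567% lower.

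In reticular cells 4 of 24 members tested rose and 5 fell in live draining LNs (16.7% of all genes were called, 8.52% higher and 8.22% lower), and 12 had an unadjusted p under 0.05. Nrp2 had 83.6, 84.6 and 85.1 CPM in live draining reticular cells, against 168, 143 and 162 in live non-draining reticular cells (-0.91, SE 0.12, adjusted p = 8.9e-06). It had 101, 139 and 120.0 in fixed draining, against 183, 135 and 128 in fixed non-draining and 174, 148, 161 and 151 in naive reticular cells. The 3 live draining libraries, close to each other, were the lowest of the 16; the difference from the fixed effect missed the threshold (-0.58, adjusted p = 0.071). Nrp1 fell by less, with 423, 393 and 408 in live draining reticular cells, against 522, 543 and 653 in live non-draining reticular cells (-0.48, SE 0.10, adjusted p = 0.0022), and 467, 438 and 496 in fixed draining, against 533, 542 and 432 in fixed non-draining and 551, 496, 489.7 and 610.0 in naive cells. Again no live draining library reached any of the others.

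Sema3c, a secreted ligand that binds neuropilins, went the opposite way. It had 67.6, 79.2 and 76.2 CPM in live draining reticular cells, against 16.1, 4.64 and 12.3 in live non-draining reticular cells (253, 321 and 224 UMIs against 27, 4 and 12; 2.61, SE 0.36, adjusted p = 1.7e-05). It had 10.5, 24.1 and 20.6 in fixed draining, against 6.06, 51.6 and 13.5 in fixed non-draining and 45.5, 25.1, 49.05 and 42.5 in naive reticular cells. Naive cells thus stood between live draining and live non-draining cells, and the rise over naive was smaller (0.87, SE 0.22, adjusted p = 0.0058). Sema3c was also the single member whose live effect differed from the fixed effect (3.02, SE 0.64, adjusted p = 0.0095; 3.51% of all genes were called, 1.72% higher and 1.79% lower), which fell to 1.65 and lost its call without fixed non-draining B.

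Adventitial cells, where Sema3c is highest, made up 8.97% to 10.6% of reticular cells in live draining LNs, against 1.53% to 4.35% in live non-draining, 2.17% to 4.49% in fixed draining, 1.09% to 3.45% in fixed non-draining and 3.12% to 4.63% in naive LNs. They held 87.2% of the reticular Sema3c UMIs in live draining LNs (696 of 798), against 30.2% in live non-draining LNs (13 of 43) and 76.2% in naive LNs (301 of 395). Within adventitial cells Sema3c had 380.0, 492 and 370.4 CPM in live draining LNs, against 408, 309, 455 and 728 in naive LNs, and the groups overlapped. Only 1 live non-draining library had the 10 adventitial cells needed (92.2), and edgeR called 0 of 8 members between live draining and naive adventitial cells (1 at an unadjusted p under 0.05), where 6.24% of all genes were called, 3.43% higher and 2.81% lower. Sema3d shared this pattern: it had 38.7, 39.95 and 32.7 in live draining reticular cells, against 12.5, 23.2 and 8.23 in live non-draining reticular cells (1.41, SE 0.37, adjusted p = 0.01), adventitial cells held 73.2% of its UMIs in live draining LNs (295 of 403) and 20.4% in live non-draining LNs (10 of 49), and its call was lost without live non-draining A or C (1.17 to 1.79 over the leave-outs). Sema3d thus rose in reticular cells while it fell in LECs. How far the larger adventitial share accounts for either rise was not tested.

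Plxnb2 had 202, 229 and 216 CPM in live draining reticular cells, against 149.6, 181 and 166 in live non-draining reticular cells (0.40, SE 0.088, adjusted p = 0.0026), a rise also seen in LECs. Plxna2, a receptor of class 6 semaphorins, had 59.0, 71.5 and 53.8 in live draining reticular cells, against 85.2, 92.8 and 99.8 in live non-draining reticular cells (-0.57, SE 0.13, adjusted p = 0.0033). Sema3a was called too (2.15, SE 0.53, adjusted p = 0.0062), on the basis of 24, 35 and 12 UMIs in live draining, against 3, 1 and 1 in live non-draining reticular cells, within the range of B cells (0 to 10.2 CPM) and read as background; the lymphatic list, whose cells carry Sema3a, was 151.7 to 174.4 in live draining and 96.66 to 121.6 in live non-draining reticular cells. Sema4b (-0.53, adjusted p = 0.039) and Sema3b (-0.33, adjusted p = 0.049) lost their calls in 5 leave-outs (-0.57 to -0.48) and 14 leave-outs (-0.38 to -0.24), and both also with the library letter as a block (-0.51, adjusted p = 0.074 for Sema4b and -0.32, adjusted p = 0.11 for Sema3b). Sema5a, whose source among reticular cells is the margin, had 99.9, 123 and 134 in live draining, against 158, 205 and 115 in live non-draining, 129.6, 145 and 162 in fixed draining, against 119.7, 235 and 166 in fixed non-draining and 149.5, 124, 126 and 121 in naive reticular cells (-0.42, SE 0.17, adjusted p = 0.10). After fixed cells edgeR called 0 members (0 by DESeq2, 3 at an unadjusted p under 0.05, 0% of all genes). Against naive cells 5 members were higher and 4 lower (21.6% of all genes were called, 11.0% higher and 10.5% lower), with Nrp2 at -0.91 and Nrp1 at -0.39.

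**Figure D4:**
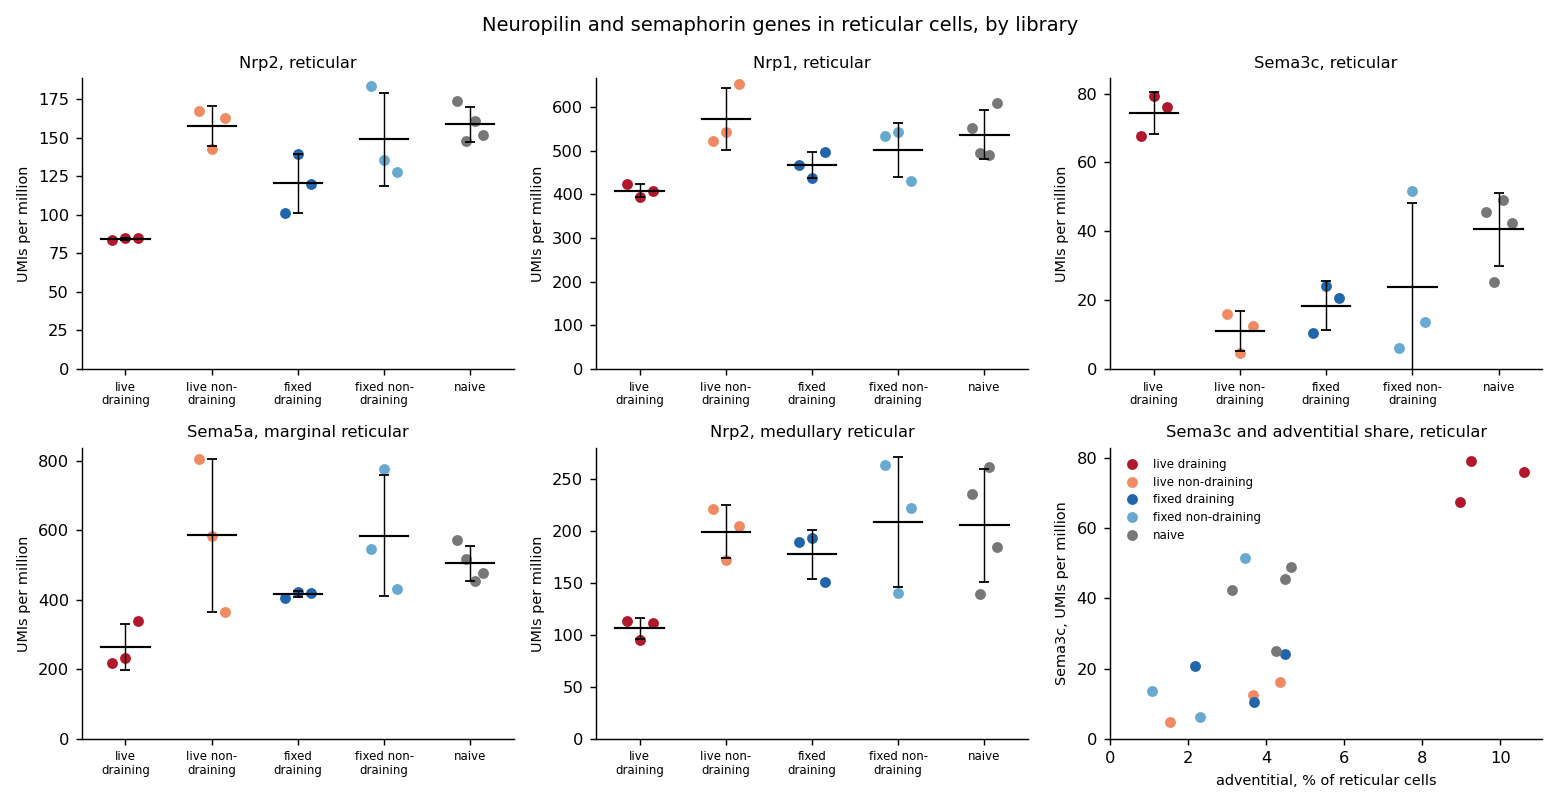
CPM of Nrp2, Nrp1 and Sema3c in reticular cells, Sema5a in MRCs and Nrp2 in MedRCs by group (points are libraries, bars mean ± SD), and Sema3c in reticular cells against the percentage of reticular cells that are adventitial, a point per library. Live draining libraries are lowest for Nrp2 (83.6 to 85.1) and lie at the upper right of the last panel (67.6 to 79.2 at 8.97% to 10.6%).

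The makeup of the reticular compartment differed between groups in other subsets as well: MRCs were 30.2% to 32.8% of reticular cells in live draining LNs, against 12.2% to 15.3% in live non-draining LNs, TRCs 15.1% to 17.1%, against 24.1% to 26.2%, and MedRCs 6.37% to 8.92%, against 21.4% to 30.5%. Nrp1 is low in MRCs and Nrp2 high in MedRCs, and the part of these shares in the falls of the whole compartment was not tested. Within MedRCs Nrp2 had 113, 94.6 and 111 CPM in live draining LNs, against 221, 172 and 205 in live non-draining LNs (-0.99, SE 0.25, adjusted p = 0.022; 2.24% of all genes were called, 1.53% higher and 0.710% lower), with no overlap. This was the single call among 13 members there, and it was lost without any live draining library or without live non-draining A or C (-1.06 to -0.88 over the leave-outs). It was repeated against naive MedRCs (-0.96, adjusted p = 0.012; 2.21% of all genes were called, 1.53% higher and 0.679% lower).

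In TRCs edgeR called 0 of 15 members (0 by DESeq2, 1 at an unadjusted p under 0.05), where 1.19% of all genes were called, 0.506% higher and 0.683% lower. Nrp1 had 577, 727 and 623 in live draining TRCs, against 608, 786 and 909 in live non-draining TRCs (-0.26, adjusted p = 0.67), and Nrp2 105, 124 and 123, against 137, 138 and 129 (-0.23, adjusted p = 0.79). In MRCs, Sema5a was the single call among 15 members (4.79% of all genes were called, 2.49% higher and 2.31% lower). It had 218, 233 and 339 CPM in live draining MRCs, against 805, 584 and 364 in live non-draining MRCs (-1.18, SE 0.22, adjusted p = 0.0024), with 405, 423 and 418 in fixed draining, against 546, 776 and 431 in fixed non-draining and 570.4, 517, 453 and 477 in naive MRCs. All live draining libraries were below all others, as in fLECs, and the call was lost without live non-draining A (-1.43 to -0.88 over the leave-outs). The interaction missed the threshold (-0.68, adjusted p = 0.51), the fall from naive was called (-0.92, adjusted p = 0.0046; 7.40% of all genes were called, 3.83% higher and 3.56% lower), and so was that of Nrp2 from naive (-0.85, SE 0.18, adjusted p = 0.0028). B-zone reticular cells had no gate of their own here. Cxcl13, which the paper lists among their markers, counted toward the MRC gate, so some may stand among the MRCs. Their part in the MRC results was not tested.

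Immune cells of the PDPN-enriched suspensions carried their own members: Plxnc1 had a median of 334 CPM in dendritic cells, Sema4d one of 134 in B cells and Sema4a ones of 192 in dendritic cells, 187 in macrophages and monocytes and 214 in NK cells. In dendritic cells 1 of 14 members rose and 1 fell in live draining LNs (5.01% of all genes were called, 3.44% higher and 1.57% lower), while 4 rose after fixed cells (5.31% of all genes were called, 3.41% higher and 1.91% lower). Sema7a had 119, 101 and 98.5 in live draining dendritic cells, against 50.7, 40.5 and 51.3 in live non-draining dendritic cells (1.17, SE 0.14, adjusted p = 1.9e-05). It had 55.6, 61.5 and 56.2 in fixed draining, against 43.0, 34.3 and 28.8 in fixed non-draining dendritic cells (0.68, SE 0.18, adjusted p = 0.027), and 38.5 to 53.4 in naive ones. Sema7a thus rose in the draining LN after live and after fixed cells, the fixed call being lost without fixed draining B or fixed non-draining B or C (0.56 to 0.87 over the leave-outs).

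Sema6d, a ligand of plexin A1, and Plxnc1, the receptor of SEMA7A, had live effects that differed from their fixed effects. Sema6d had 118, 96.1 and 80.7 CPM in live draining dendritic cells, against 143, 122 and 173 in live non-draining ones (-0.54, SE 0.13, adjusted p = 0.018), and 126, 142 and 128 in fixed draining, against 84.2, 65.2 and 67.6 in fixed non-draining ones (0.85, SE 0.15, adjusted p = 0.0013). The interaction was -1.39 (SE 0.20, adjusted p = 0.00052; 5.23% of all genes were called, 2.34% higher and 2.89% lower). Plxnc1 had 331, 282 and 272 in live draining, against 353, 325 and 429.9 in live non-draining dendritic cells (-0.29, adjusted p = 0.11), and 335, 372 and 333 in fixed draining, against 254, 254 and 217 in fixed non-draining ones (0.53, adjusted p = 0.0055), with an interaction of -0.82 (SE 0.15, adjusted p = 0.0035). In naive dendritic cells Sema6d ranged between 137 and 159 and Plxnc1 between 375 and 419, and the lowest library of either gene was a fixed non-draining one. The live call of Sema6d was lost without live draining B or C or live non-draining C (-0.70 to -0.41 over the leave-outs), and with the library letter as a block (-0.53, adjusted p = 0.066). The reticular list was 111.9 to 119.1 in live draining dendritic cells, against 41.37 to 43.06 in live non-draining ones, and the T cell list 2.548 to 16.79, against 24.13 to 37.89; their part was not tested.

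In macrophages and monocytes 1 of 11 members rose and 1 fell (5.52% of all genes were called, 2.81% higher and 2.71% lower). Sema4a, a costimulator of T cells, had 121, 109 and 130.0 CPM in live draining macrophages and monocytes, against 182, 208 and 206 in live non-draining ones (-0.68, SE 0.13, adjusted p = 0.0026), and 193, 194 and 201 in fixed draining, against 139.7, 145 and 156 in fixed non-draining ones (0.41, adjusted p = 0.27), with an interaction of -1.09 (SE 0.20, adjusted p = 0.0033; 2.87% of all genes were called, 1.11% higher and 1.76% lower). The live draining libraries were the lowest of all. A list of 3 plasmacytoid dendritic cell markers was 43.4 to 85.66 in these live draining cells, against 187.6 to 339.7 in live non-draining ones. The reticular list was 176.9 to 184.1 in live draining, against 43.03 to 86.52 in live non-draining macrophages and monocytes, and the neutrophil list of 4 genes 125.8 to 2666.9, against 150.6 to 199.7. The part of these lists in the results was not tested. Plxna1 had 74.0, 64.8 and 60.1 in live draining macrophages and monocytes, against 38.5, 36.2 and 50.4 in live non-draining ones (0.72, SE 0.19, adjusted p = 0.024), but 58.0 to 69.0 in naive ones. Its call was lost without live draining A or live non-draining A or B (0.63 to 0.83 over the leave-outs), and with the library letter as a block (0.72, adjusted p = 0.066).

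In B cells Sema4b had 114, 167 and 128 CPM in live draining LNs, against 64.8, 83.6 and 89.1 in live non-draining LNs (0.82, SE 0.20, adjusted p = 0.032; 1.38% of all genes were called, 0.863% higher and 0.520% lower), the single call among 9 members, not made by DESeq2, and lost in 5 leave-outs (0.64 to 0.94). Sema4a had an interaction there (-3.46, SE 0.73, adjusted p = 0.025; 0.816% of all genes were called, 0.272% higher and 0.544% lower), with 13.6, 8.54 and 10.9 in live draining, against 22.2, 16.4 and 25.9 in live non-draining, and 37.0, 81.5 and 36.7 in fixed draining, against 14.2, 0 and 5.19 in fixed non-draining B cells, lost in 7 leave-outs (-5.27 to -3.02). The dendritic list was 69.66 to 134.1 in live draining B cells, against 282 to 845.5 in live non-draining ones. It was 504.1 to 1833.8 in fixed draining B cells, against 66.05 to 720.6 in fixed non-draining ones. The part of this list in the B cell results was not tested. edgeR called 0 of 9 members in T cells in live draining against live non-draining LNs (4 at an unadjusted p under 0.05), where 1.68% of all genes were called, 1.37% higher and 0.317% lower, and plasma and NK cells had 1 member tested each, with 0 called.

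**Figure D5:**
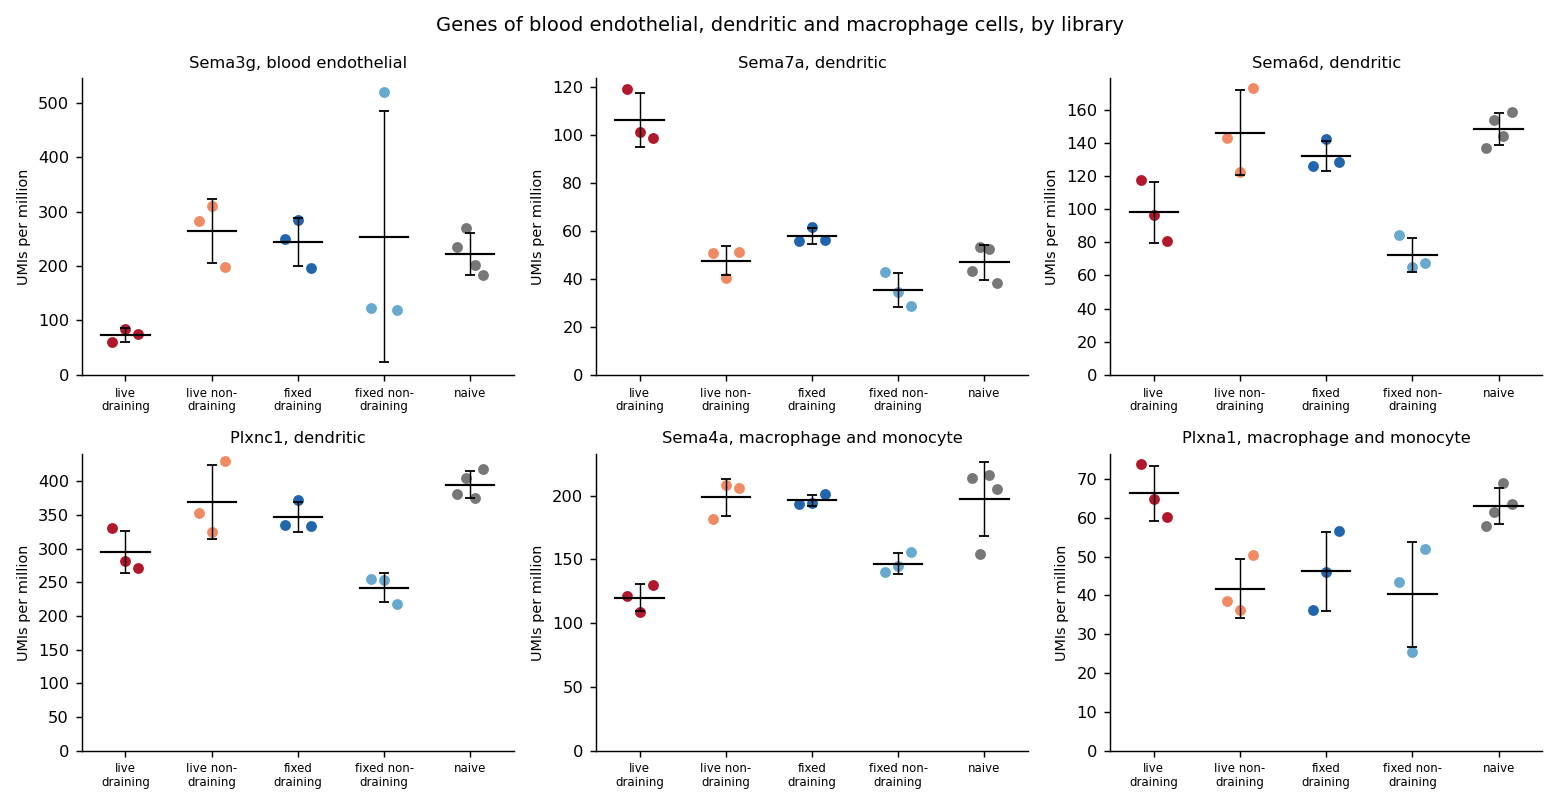
CPM of Sema3g in BECs, Sema7a, Sema6d and Plxnc1 in dendritic cells, and Sema4a and Plxna1 in macrophages and monocytes, by group (points are libraries, bars mean ± SD). Sema7a is highest in live draining libraries (98.5 to 119), whereas the lowest libraries of Sema6d (65.2) and Plxnc1 (217) are fixed non-draining ones.

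Beyond the ligands and receptors, 50 partners and effectors of semaphorin signaling were counted. In LECs 18 of 46 tested rose and 9 fell in live draining LNs, where 30.3% of all genes were called, 15.8% higher and 14.6% lower, with a median log2 fold change of 0.128 beside -0.0118 over all genes. After fixed cells 4 rose and 0 fell, where 1.90% of all genes were called, 1.19% higher and 0.714% lower. Dpysl3, of the CRMP family that relays SEMA3A signals in axons, rose by 1.07 (SE 0.088, adjusted p = 1.5e-09), the receptor kinase gene Met, whose product can couple to plexin B1, by 0.73 (SE 0.085, adjusted p = 4e-07) and the actin-severing cofilin gene Cfl1 by 0.47 (SE 0.066, adjusted p = 4.9e-06), while Kdr, the VEGF receptor that pairs with neuropilins, fell by 0.42 on the log2 scale (SE 0.053, adjusted p = 1.2e-06). In reticular cells 5 of 44 rose and 5 fell (16.7% of all genes were called, 8.52% higher and 8.22% lower; median 0.0954 beside -0.0104). There the actin oxidase gene Mical2 rose by 2.19 (SE 0.40, adjusted p = 0.00047) and Cfl1 by 0.52 (adjusted p = 0.0046), while Hgf, the ligand of MET, had a value of -0.63 (adjusted p = 0.0068) and Arhgef12, a plexin B effector, of -0.35 (adjusted p = 0.011). In the same comparison edgeR called 0 of 32 in MRCs, 0 of 37 in TRCs and 0 of 29 in MedRCs. In these subsets smaller shares of all genes were called, as given above. The part of the shifted subset shares in the calls of reticular cells as a whole was not tested. In BECs 0 of 22 rose and 1 fell (1.61% of all genes were called, 0.946% higher and 0.662% lower), the collagen-binding integrin gene Itga1 (-1.10, SE 0.24, adjusted p = 0.025).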

How the data were processed

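Droplet 3′ libraries of PDPN-enriched LN cells (16 in 5 groups) were analysed. The deposited files hold raw UMI counts per gene and cell, produced by the authors in Cell Ranger 3.0.1 on mm10 according to the labels. Whether reads were counted by strand is not given in the sources used here, so Plxna4 and its antisense genes may share reads.

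Cells with 200 to 6000 genes and at most 30% mitochondrial UMIs were kept. A type needed 3 markers of its lineage and at most 2 of any other; no doublet caller was run. UMIs were summed per library and type (at least 10 cells) and tested with edgeR 4.0.16 (limma 3.58.1, R 4.3.3): filterByExpr, TMM, quasi-likelihood F test over all 16 libraries, with Benjamini-Hochberg adjustment over all genes tested in a type; a member was called at an adjusted p under 0.05. Python 3.11.15 was used for gating and matplotlib 3.10.9 for plots. Alternatives were DESeq2 1.42.0, its size factors in edgeR, the 12 libraries of inoculated mice alone, no low-count filter, a stricter gate, a wider gate (chosen after seeing how many cells were unassigned), a 10% mitochondrial limit, a replicate block and leaving out each library. The tests were run on counts simulated with a preset dispersion, the same for every gene and type and not estimated from these data. The shares below hold for that setting and need not hold for the real counts. Among changed genes that passed the low-count filter, a log2 change of 1 was recovered in 82% in LECs, 62.9% in reticular cells and 44.8% in BECs. For a log2 change of 2 the shares were 99%, 98% and 85.3%. False calls made up 5.76%, 3.07% and 6.77% of calls in these types. The summed LEC counts of replicate pairs differed beyond sampling noise (chi-square per degree of freedom 1.66 to 6.19), so no library was counted as a copy. This measure cannot tell libraries of separate mice from splits of a suspension, since splits would also hold different cells.

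Levels by library were given for Sema5a, Nrp1 and Nrp2, for up to 6 called members per broad stromal type and up to 3 per subset or immune type, by smallest p. In some cases these cover the live draining and live non-draining libraries only. Up to 4 pathway genes per broad stromal type were named, and some further called members are named with their test only. The members and gene lists were chosen with earlier results of these data known. Promoters of 2 members came from RefSeq, and all 34 members matched the GENCODE annotation by gene ID (25 with the same version).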

Additional observations from a re-analysis of the deposited data

Results flagged for a closer look

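In 23 results the live draining effect (live draining minus live non-draining) differed from the fixed draining effect by edgeR's interaction term, as log2 differences. In LECs these were Sema3f (0.79), Sema5a (-0.97), Plxnb2 (0.51), Sema3d (-0.45), Sema3a (0.48), Sema4c (0.37) and Plxna4os1 (1.05), the last resting on an antisense gene whose strand of counting is not known. In fLECs they were Sema3f (2.22), Sema5a (-1.44), Sema4c (0.55), Plxnd1 (0.72), Plxnb2 (0.44) and Sema3d (-0.50), in cLECs Sema3f (0.79), Sema3a (0.73), Sema3d (-0.42) and Plxnb2 (0.47), and in MedLECs Sema3a (1.29). In reticular cells it was Sema3c (3.02), in dendritic cells Sema6d (-1.39) and Plxnc1 (-0.82), in macrophages and monocytes Sema4a (-1.09) and in B cells Sema4a (-3.46). The subsets are parts of the LECs, so their results repeat those of LECs in part.

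In a single case a naive library stood far from the other naive ones: Plxna4 in reticular cells had 10.9, 10.7, 8.84 and 10.8 CPM. The gap between the lowest library and the next was 0.895 of the range, above the Dixon limit for 4 samples. It was 1 of 23 member and type pairs examined, and chance gives about 5% of them.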

How the results depend on the processing

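Over 114 results for single members, 0 of 816 alternative values and 0 of 1824 values without a library changed direction; 81 and 154 lost their call, touching 42 and 35 of the results. In LECs the 9 calls between live draining and live non-draining LNs became 8 with DESeq2, 10 without the low-count filter, 6 with a stricter and 11 with a wider gate, and 6 to 9 without single libraries. The single LEC call after fixed cells became 0 with the stricter gate and 0 to 1 without single libraries. In BECs the single live call became 2 without the filter, 0 with either gate and 0 to 1 without single libraries, the naive call 0 with either gate and 0 to 1 without single libraries, and the interaction count of 0 became 1 without the filter and 0 to 1 without single libraries. In reticular cells the 9 live calls lay between 6 and 10 without single libraries, the fixed count of 0 became 1 without the filter, and the interaction count of 1 became 2 with DESeq2, without the filter and with the stricter gate, 6 with the wider gate and 0 to 2 without single libraries. Members called between fLECs and other subsets numbered 23 instead of 15 without the filter, and between MedRCs and other subsets 6 instead of 10 with the stricter gate; the causes were not tested.

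Draining and non-draining LNs came from the same mice, but the labels do not say that libraries with the same letter share a mouse, so the letter was not used as a pairing in the main design. Deviations of libraries with the same letter correlated at -0.0586 to 0.0659, with 0 of 6 pairs over 0.1 in each of 5 types. Those with different letters correlated at -0.0945 to 0.0488. After fixed cells, B with B and C with C were above 0 in all 5 types, and B with C below 0. A with A took both signs, as did the same-letter pairs after live cells. These values do not settle whether a letter marks a mouse. With the letter as a replicate block the calls were 8, 1 and 6 for the live, fixed and interaction contrasts in LECs, 1, 0 and 0 in BECs and 7, 0 and 1 in reticular cells. The calls this block ended were those of Sema6b in LECs, Sema4b and Sema3b in reticular cells, Plxna1 in macrophages and monocytes and Sema6d in dendritic cells after live cells, and the interactions of Plxnb2 in fLECs and cLECs and of Plxna4os1 in LECs (1.06, adjusted p = 0.059). Intervals over few cells (BECs, CorLECs, adventitial cells) limit what can be called there, and levels cover only genes reached by 3′ reads.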
